A study of Mus musculus with 12 samples.

Results

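The skeletal muscle contractile and metabolic genes described here are 42 genes of the myosin filament, the actin filament, the Z-disc, calcium handling and energy supply, chosen as a listed set by gene symbol. All 42 matched a single gene identifier among the 53465 in the count files, and 41 had enough counts to be tested. The exception was Myh7, the slow myosin heavy chain. RNA came from mouse skin in 12 bulk RNA-seq libraries, 3 in each of 4 groups. The groups were irradiated DE2, irradiated WT, untreated DE2 and untreated WT. WT denotes mice labelled Foxp3-WT, and DE2 denotes mice that the protocol calls Foxp3-DE2, the genotype tag Foxp3-E2 and the series title Foxp3dExon2, taken here as 1 genotype. Foxp3 is the transcription factor of regulatory T cells. Irradiated skin was a shaved patch of the back flank that received 6 doses of UVB light, given as 200 mJ/cm2 in the sample labels and as 100 mJ/cm2 in the protocol. Untreated skin came from another site, and whether it was shaved is not stated. Irradiated and untreated skin therefore differed in site, and perhaps in shaving, as well as in UVB, and these cannot be told apart. With UVB and without UVB name the irradiated and untreated groups only. Age, sex and strain background are not given. The labels do not say which animals the libraries came from, so p-values measure only the spread between these libraries. Replicates are numbered in accession order and are not paired across groups.

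Striated muscle contracts when calcium released from the sarcoplasmic reticulum binds troponin and lets myosin heads pull on actin. Fibres differ in the myosin heavy chain they make: Myh4 marks fast type IIb, Myh1 type IIx, Myh2 type IIa and Myh7 slow fibres, and troponins and light chains come in fast and slow forms. Mouse skin carries its own thin striated muscle sheet, the panniculus carnosus, beneath the dermis and fat. In bulk RNA, more muscle cells in a sample and more muscle RNA per cell cannot be told apart.

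The promoters of 3 members that the results turn on are printed to show the sequence around the start of the most abundant actin gene and of the heavy chain pair whose balance differed most between libraries. They are RefSeq promoters on GRCm38.p6, each of 300 bases, 250 before and 50 after the annotated start, written along the gene's strand. Capitals mark the E-box CAGCTG, the MEF2 site, the CArG box and the TATAAA box, wherever these occur.
Acta1, chr8:123894726-123895025, minus strand: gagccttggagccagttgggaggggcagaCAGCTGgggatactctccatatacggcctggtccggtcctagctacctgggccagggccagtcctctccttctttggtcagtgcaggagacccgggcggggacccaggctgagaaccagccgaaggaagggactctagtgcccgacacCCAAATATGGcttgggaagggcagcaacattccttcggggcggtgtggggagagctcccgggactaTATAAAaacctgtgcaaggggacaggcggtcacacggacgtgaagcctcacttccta
Myh4, chr11:67237562-67237861, plus strand: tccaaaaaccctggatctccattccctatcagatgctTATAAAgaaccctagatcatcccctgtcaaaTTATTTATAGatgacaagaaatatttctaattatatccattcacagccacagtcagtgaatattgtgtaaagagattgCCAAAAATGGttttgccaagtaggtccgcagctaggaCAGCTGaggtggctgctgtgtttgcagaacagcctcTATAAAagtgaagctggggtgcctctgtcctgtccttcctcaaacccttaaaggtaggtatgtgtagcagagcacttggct
Myh1, chr11:67199852-67200151, plus strand: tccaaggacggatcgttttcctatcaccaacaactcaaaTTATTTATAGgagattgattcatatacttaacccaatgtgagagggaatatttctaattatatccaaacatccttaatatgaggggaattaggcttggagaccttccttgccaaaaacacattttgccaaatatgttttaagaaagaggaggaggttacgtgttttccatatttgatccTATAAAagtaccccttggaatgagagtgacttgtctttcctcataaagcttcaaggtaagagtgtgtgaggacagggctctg

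E-boxes are the letters that myogenic basic helix-loop-helix factors such as MyoD bind, and MEF2 and serum response factor bind the MEF2 site and the CArG box. The Acta1 promoter held CAGCTG 221 bases, a CArG box 73 bases and TATAAA 7 bases before the start. GENCODE places the starts of all 3 genes elsewhere. That of Acta1, at 123894751, lies inside the printed window, downstream of the RefSeq start. That of Myh4, at 67238029, lies downstream of the printed window. That of Myh1, at 67200052, lies inside its window, upstream of the RefSeq start. Distances given here hold for the RefSeq starts only. The Myh4 promoter held CAGCTG, a MEF2 site and a CArG box, with a TATAAA 31 bases before the start, and the Myh1 promoter held a MEF2 site and a TATAAA 32 bases before the start but no CAGCTG. RefSeq held 40 promoters for 33 of the 42 members. On either strand, CAGCTG stood in 52.5% of these 40, against 16.3% of all 32851 mouse promoters of this length in the table. The wider E-box CANNTG, which includes CAGCTG, stood in 85.0% of member promoters against 72.3% of all. The MEF2 site stood in 15% against 3.19%, the CArG box in 12.5% against 1.63%, CATTCC in 32.5% against 14.7% and TATAAA in 17.5% against 13.6%. These matches describe letters in a window and were not set against binding data.

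Libraries held 2809142 to 4741726 gene counts. Levels are given as CPM, counts per 1000000 counts of a library, with library sizes scaled by factors from the trimmed mean of M values (TMM). In the muscle genes 4 libraries lay to one side of their group. Irradiated WT replicate 2 was the highest of its 3 libraries in 34 of the 41 tested members, and untreated DE2 replicate 1 was the lowest of its 3 in 36. Irradiated WT replicate 3 was the lowest in 37 members and untreated WT replicate 2 in 32. The counts of members that passed are therefore also given without irradiated WT replicate 2 and untreated DE2 replicate 1 together, and without other single libraries where that moved the count. These 2 libraries were picked by the members' own values. Leaving out untreated DE2 replicate 1 raises the mean of its group in most members. Leaving out irradiated WT replicate 2 lowers the mean of its group in most members. The counts without either library are therefore not a separate check. Shares over all genes are not given for these fits. Shares of counts, further muscle lists and markers of other cell types are given over all libraries.

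Muscle genes took a larger share of the counts in untreated DE2 skin than in any other group. The 42 members held 4.69, 4.24 and 5.22% of all counts in irradiated DE2 skin. They held 4.83, 9.79 and 2.41% in irradiated WT skin. In untreated DE2 skin the share was 10.5, 17.0 and 18.6%, and in untreated WT skin 5.97, 5.15 and 6.37%. All 3 untreated DE2 libraries therefore lay above the other 9, while irradiated WT libraries were spread over more than the whole range of both irradiated DE2 and untreated WT skin. Means were 4.72 ± 0.49% in irradiated DE2, 5.68 ± 3.76% in irradiated WT, 15.4 ± 4.30% in untreated DE2 and 5.83 ± 0.62% in untreated WT skin (SD, n = 3 each). Counting error was small beside this: the 95% Wilson interval for irradiated DE2 replicate 1 was 4.67 to 4.71%. Intervals cover counting error only.

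Levels of the members spanned several orders of size. Per kilobase of exon, averaged over the 12 libraries, Acta1 was highest at 9858 CPM per kb, followed by Tnnt3 at 3339, Tcap at 2531, Tnni2 at 2408 and Atp2a1 at 2055. Lowest were the slow-fibre genes Tnnt1 at 11.6 CPM per kb, Tnni1 at 3.60, Myl2 at 2.31, Tnnc1 at 1.46, Myl3 at 1.38 and Myh7 at 0.0343. The slow form Mybpc1 was the exception, at 167.6 CPM per kb.

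**Figure D1:**
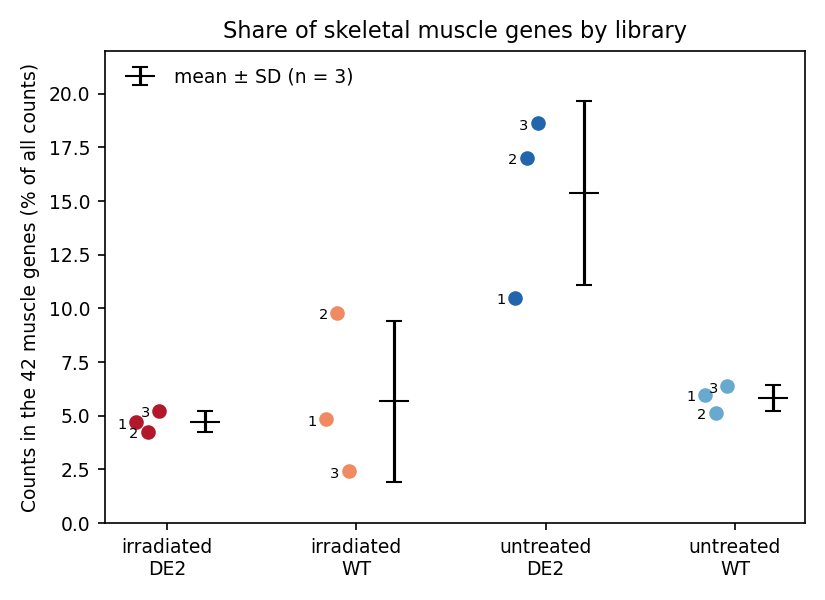
Share of all gene counts held by the 42 muscle genes (percent, y axis) in each library of the 4 groups (x axis). Points are libraries with their replicate number, and black bars are the mean ± SD of 3 libraries; the 3 untreated DE2 libraries lie at 10.5, 17.0 and 18.6%, above the other 9.

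Without UVB, DE2 skin had higher muscle transcripts than WT skin across every structural and metabolic role. In edgeR's quasi-likelihood test, adjusted by the Benjamini-Hochberg method over all 15126 genes tested, 34 of 41 members were higher and 0 lower in untreated DE2 than in untreated WT skin, where 11.8% of all genes were higher. The median log2 fold change of the members was 2.01, against 0.03 over all genes. In 34 members every untreated DE2 library lay above every untreated WT library, as in 19.4% of all genes. The 7 that did not pass were Myh4, Actn3, Pvalb, Myl2, Myl3, Tnnc1 and Tnni1. Without untreated DE2 replicate 1, the lowest of its group in most members, and irradiated WT replicate 2, 39 members passed. Leaving out a single library gave 17 to 38, the lowest without untreated WT replicate 2, with 20 without untreated WT replicate 1.

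In DE2 mice, irradiated skin had lower muscle transcripts than untreated skin. Of 41 members, 35 were lower and 0 higher at the same threshold, where 13.4% of all genes were lower. The median log2 fold change was -2.03, against 0.02 over all genes. Irradiated and untreated DE2 libraries did not overlap in 34 members, all lower when irradiated, as in 19.4% of all genes. The 6 that did not pass were Myl2, Myl3, Tnnc1, Tnni1, Tnnt1 and Sln. The count was again 35 without irradiated WT replicate 2 and untreated DE2 replicate 1, and 28 to 35 when each library was left out in turn. This comparison uses the same 3 untreated DE2 libraries as the genotype comparison without UVB, so the 2 are not separate observations.

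**Figure D2:**
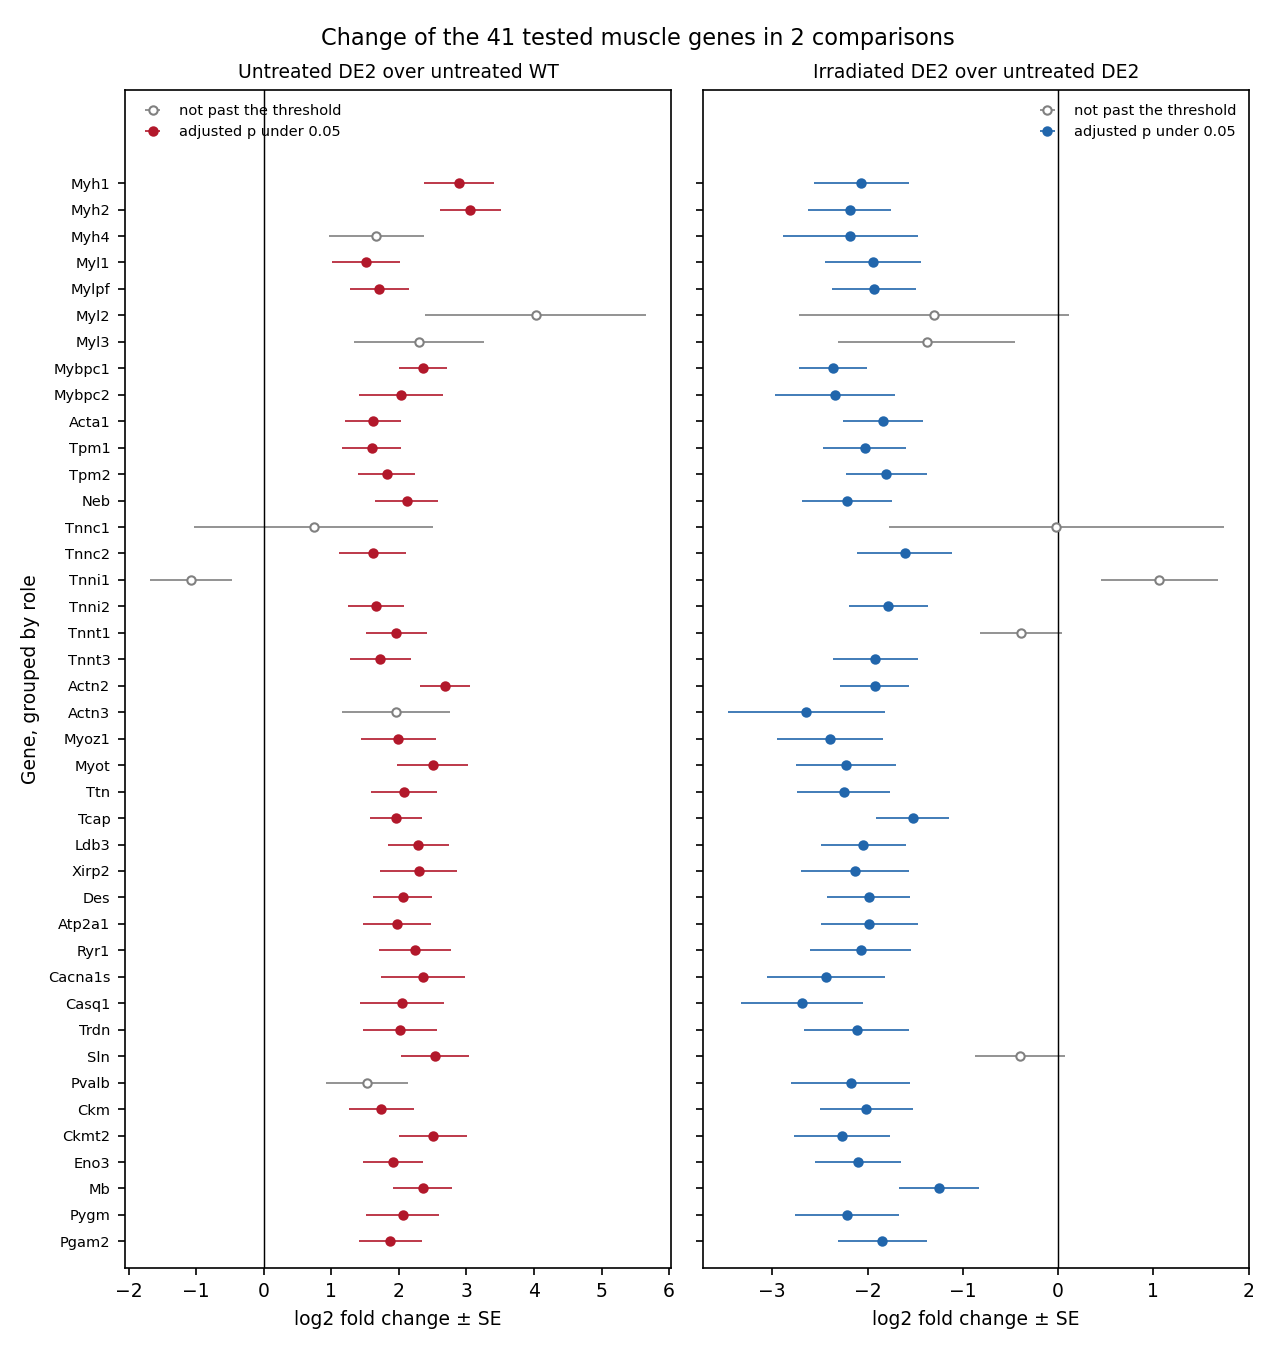
Log2 fold change ± SE (x axes) of the 41 tested muscle genes (y axis, grouped by role) in untreated DE2 over untreated WT skin (left) and irradiated DE2 over untreated DE2 skin (right). Filled points passed an adjusted p of 0.05 and open points did not; 34 genes are filled on the left, all above 0, and 35 on the right, all below 0.

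Myosin heavy chains are the motor proteins of the thick filament. Myh4 had 1520, 2520 and 2490 CPM in irradiated DE2, 2234, 6834 and 992.5 in irradiated WT, 1817, 11328 and 16436 in untreated DE2 and 2906, 2736 and 3664 in untreated WT skin. Untreated DE2 replicate 1 lay below all 3 untreated WT libraries for this gene, and the other two of its group lay above every other library. Myh4 accordingly did not pass between untreated DE2 and untreated WT skin (log2 fold change 1.67 ± 0.70 SE, adjusted p = 0.103), and it passed without untreated DE2 replicate 1 (2.16, adjusted p = 0.0171). It was lower in irradiated than in untreated DE2 skin (-2.18 ± 0.71, adjusted p = 0.0354), with the groups overlapping. Myh1 had 1194, 630.2 and 608.4 CPM in irradiated DE2, 995.5, 528.8 and 306.5 in irradiated WT, 3824, 4990 and 1366 in untreated DE2 and 651.5, 347.8 and 374.8 in untreated WT skin. Every untreated DE2 library was above every other library for Myh1. It was higher in untreated DE2 than in untreated WT skin (2.89 ± 0.52, adjusted p = 0.00141) and lower in irradiated than in untreated DE2 skin (-2.07 ± 0.50, adjusted p = 0.00709).

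Myh2 had 236.9, 132.6 and 120.7 CPM in irradiated DE2, 175.6, 127.4 and 48.35 in irradiated WT, 466.9, 1072 and 697.4 in untreated DE2 and 93.82, 61.74 and 112.6 in untreated WT skin. It showed the largest difference of the heavy chains between untreated DE2 and untreated WT skin (3.06 ± 0.45, adjusted p = 0.000418) and was lower in irradiated DE2 skin by the same test (-2.19 ± 0.44, adjusted p = 0.00262). Myh7 was close to absent. It had 0, 5 and 1 counts in irradiated DE2, 0, 5 and 2 in untreated DE2 and 0 in each of the 6 WT libraries, where a count of 0 allows up to 3 counts, or 0.623 to 0.908 CPM. Myh1, Myh2 and Myh4 are neighbours on chromosome 11 with similar sequence: 25.4% of the 50-base windows of Myh1 transcripts, 22.9% of those of Myh2 and 18.9% of those of Myh4 also occurred in another gene's transcripts, mainly in each other, so some reads may have been lost or split between them.

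Myosin light chains stabilise the lever of the myosin head, and myosin-binding proteins C tie thick filaments together. The fast light chain Myl1 had 1372, 1295 and 1728 CPM in irradiated DE2, 1485, 3942 and 630.9 in irradiated WT, 3173, 5643 and 8060 in untreated DE2 and 1892, 1768 and 2260 in untreated WT skin. The fast regulatory light chain Mylpf had 1002, 973.1 and 1362 CPM in irradiated DE2, 1151, 2414 and 540.0 in irradiated WT, 2609, 4070 and 6053 in untreated DE2 and 1294, 1131 and 1469 in untreated WT skin. In both genes untreated DE2 libraries lay above all untreated WT and all irradiated DE2 libraries. Without UVB both were higher in DE2 skin (Myl1 1.51 ± 0.50, adjusted p = 0.0411; Mylpf 1.71 ± 0.43, adjusted p = 0.0112). Mybpc1, the slow form of binding protein C, averaged 1913 ± 612 CPM in untreated DE2 and 374.1 ± 80.9 CPM in untreated WT skin (SD, n = 3 each; 2.35 ± 0.36 SE, adjusted p = 0.000362), and its fast counterpart Mybpc2 was also higher (2.03 ± 0.62, adjusted p = 0.0312). Of the 6 genes of this role, 4 passed in both comparisons. The slow light chains Myl2 and Myl3 had at most 93 and 39 counts in a library and passed in neither.

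The actin filament is built of Acta1, the skeletal actin, with tropomyosin along it and nebulin as its ruler. Acta1 was the most abundant member, also per kilobase of exon. It had 8322, 7626 and 10341 CPM in irradiated DE2, 9248, 17100 and 4552 in irradiated WT, 22255, 33170 and 38502 in untreated DE2 and 9516, 9503 and 11557 in untreated WT skin. Tpm2, beta-tropomyosin, had 3267, 2376 and 3104 CPM in irradiated DE2, 2645, 5516 and 1302 in irradiated WT, 6517, 11306 and 12672 in untreated DE2 and 3092, 2565 and 2987 in untreated WT skin. For both genes the untreated DE2 libraries were above the other 9. All 4 genes of this role were higher in untreated DE2 than in untreated WT skin, by 1.60 (Tpm1) to 2.12 (Neb) on the log2 scale, and all 4 were lower in irradiated than in untreated DE2 skin, by -1.80 (Tpm2) to -2.22 (Neb).

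Troponins are the calcium switch of the thin filament. Tnnt3, the fast troponin T, had 2903, 2471 and 3512 CPM in irradiated DE2, 2950, 6460 and 1435 in irradiated WT, 6714, 12061 and 14792 in untreated DE2 and 3462, 2939 and 3736 in untreated WT skin. Tnni2, the fast inhibitory subunit, had 2123, 1689 and 2611 CPM in irradiated DE2, 2114, 4458 and 1162 in irradiated WT, 4720, 7810 and 9581 in untreated DE2 and 2516, 2037 and 2442 in untreated WT skin. Again the untreated DE2 libraries were highest. Tnnt1, the slow troponin T, behaved differently between comparisons: it averaged 32.9 ± 12.6 CPM in irradiated DE2, 15.6 ± 7.0 in irradiated WT, 43.1 ± 20.9 in untreated DE2 and 10.99 ± 1.33 in untreated WT skin (SD, n = 3 each). It was higher in untreated DE2 than in untreated WT skin (1.96 ± 0.45, adjusted p = 0.00617), while irradiated and untreated DE2 skin overlapped (-0.39 ± 0.43, adjusted p = 0.539). Tnni1, the slow inhibitory subunit, was the member with the opposite sign in both comparisons, at -1.08 ± 0.61 (adjusted p = 0.228) and 1.06 ± 0.62 (adjusted p = 0.223), and passed in neither. Tnnc1 had at most 16 counts. Tnnc2, the fast troponin C, was higher in untreated DE2 skin (1.61 ± 0.50, adjusted p = 0.0295), but 74.0% of its exon bases overlap exons of other genes, chiefly Ube2c on the opposite strand, and whether counting used strand is not stated, so its level is uncertain.

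The Z-disc anchors actin filaments, and titin spans from it to the centre of the sarcomere. Ttn had 3553, 2230 and 2893 CPM in irradiated DE2, 2629, 6300 and 1258 in irradiated WT, 7670, 17246 and 16306 in untreated DE2 and 3982, 2749 and 3039 in untreated WT skin. Tcap, the titin cap, had 1786, 1301 and 2122 CPM in irradiated DE2, 1442, 2542 and 744.4 in irradiated WT, 3125, 5996 and 5881 in untreated DE2 and 1312, 1223 and 1317 in untreated WT skin. Both were highest in the 3 untreated DE2 libraries. Of the 9 genes of this role, 8 were higher in untreated DE2 than in untreated WT skin, with log2 fold changes of 1.96 (Tcap) to 2.68 (Actn2), and 9 were lower in irradiated than in untreated DE2 skin, with -1.53 (Tcap) to -2.64 (Actn3). Actn2, an alpha-actinin of all fibres, had the lowest adjusted p of all members without UVB (2.68 ± 0.37, adjusted p = 0.000163). Its fast-fibre relative Actn3 had 426.0, 695.3 and 663.1 CPM in irradiated DE2, 484.4, 2346 and 231.7 in irradiated WT, 584.2, 4065 and 6506 in untreated DE2 and 759.5, 790.3 and 1317 in untreated WT skin, so untreated DE2 replicate 1 lay below every untreated WT library, as for Myh4. Actn3 did not pass (1.96 ± 0.80, adjusted p = 0.0952), and passed without untreated DE2 replicate 1 (2.47, adjusted p = 0.0274). The others of this role that passed in both are Myoz1, Myot, Ldb3, Xirp2 and Des, the muscle intermediate filament, which smooth muscle also makes.

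Calcium handling covers release through Ryr1 under the control of Cacna1s, storage by Casq1 with Trdn, reuptake by the pump Atp2a1, its inhibitor Sln, and buffering by Pvalb. Atp2a1 had 3422, 4156 and 4420 CPM in irradiated DE2, 3968, 8707 and 1663 in irradiated WT, 7428, 18611 and 21305 in untreated DE2 and 3525, 3382 and 5167 in untreated WT skin. Pvalb had 773.1, 867.6 and 1219 CPM in irradiated DE2, 912.3, 3199 and 444.2 in irradiated WT, 1544, 4579 and 6806 in untreated DE2 and 1433, 1354 and 1705 in untreated WT skin. For Pvalb, untreated DE2 replicate 1 lay inside the untreated WT range, and the gene did not pass (1.53 ± 0.61, adjusted p = 0.0887; without that library 1.93, adjusted p = 0.0355). The other 6 genes were higher in untreated DE2 than in untreated WT skin, by 1.97 (Atp2a1) to 2.53 (Sln). In irradiated against untreated DE2 skin 6 of 7 were lower, with Casq1 at -2.69 ± 0.64 (adjusted p = 0.00689). Sln was the exception, at 275.8, 178.4 and 128.0 CPM in irradiated DE2 skin against 161.6, 412.0 and 195.9 CPM in untreated DE2 skin (-0.40 ± 0.48, adjusted p = 0.577). Part of the Atp2a1 exons (21.9% of bases) and of the Cacna1s exons (20.0%) overlap other genes.

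Energy supply covers creatine kinases, glycolysis, glycogen breakdown and oxygen storage. Eno3, the muscle enolase, had 1290, 1426 and 1896 CPM in irradiated DE2, 1594, 3436 and 738.3 in irradiated WT, 3971, 6735 and 9125 in untreated DE2 and 1744, 1520 and 1993 in untreated WT skin. Pygm, glycogen phosphorylase, had 1221, 1465 and 1516 CPM in irradiated DE2, 1315, 3513 and 556.1 in irradiated WT, 2842, 7291 and 9429 in untreated DE2 and 1489, 1336 and 1886 in untreated WT skin. For Eno3 the untreated DE2 libraries were above the other 9, while for Pygm irradiated WT replicate 2 exceeded the lowest of them. All 6 genes passed in both comparisons. Between untreated DE2 and untreated WT skin they ranged from 1.74 (Ckm) to 2.51 (Ckmt2), and between irradiated and untreated DE2 skin from -1.25 (Mb, myoglobin, adjusted p = 0.0383) to -2.27 (Ckmt2). Pgam2, a phosphoglycerate mutase, lay between these values. Mb, the oxygen store of oxidative fibres, had 984.2, 509.4 and 1068 CPM in irradiated DE2, 729.0, 788.6 and 214.4 in irradiated WT, 1822.5, 2737 and 1524.5 in untreated DE2 and 422.5, 477.6 and 288.9 in untreated WT skin. Here untreated DE2 replicate 1 was not the lowest of its group, and Mb was higher in untreated DE2 than in untreated WT skin by 2.36 ± 0.43 (adjusted p = 0.00166).

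**Figure D3:**
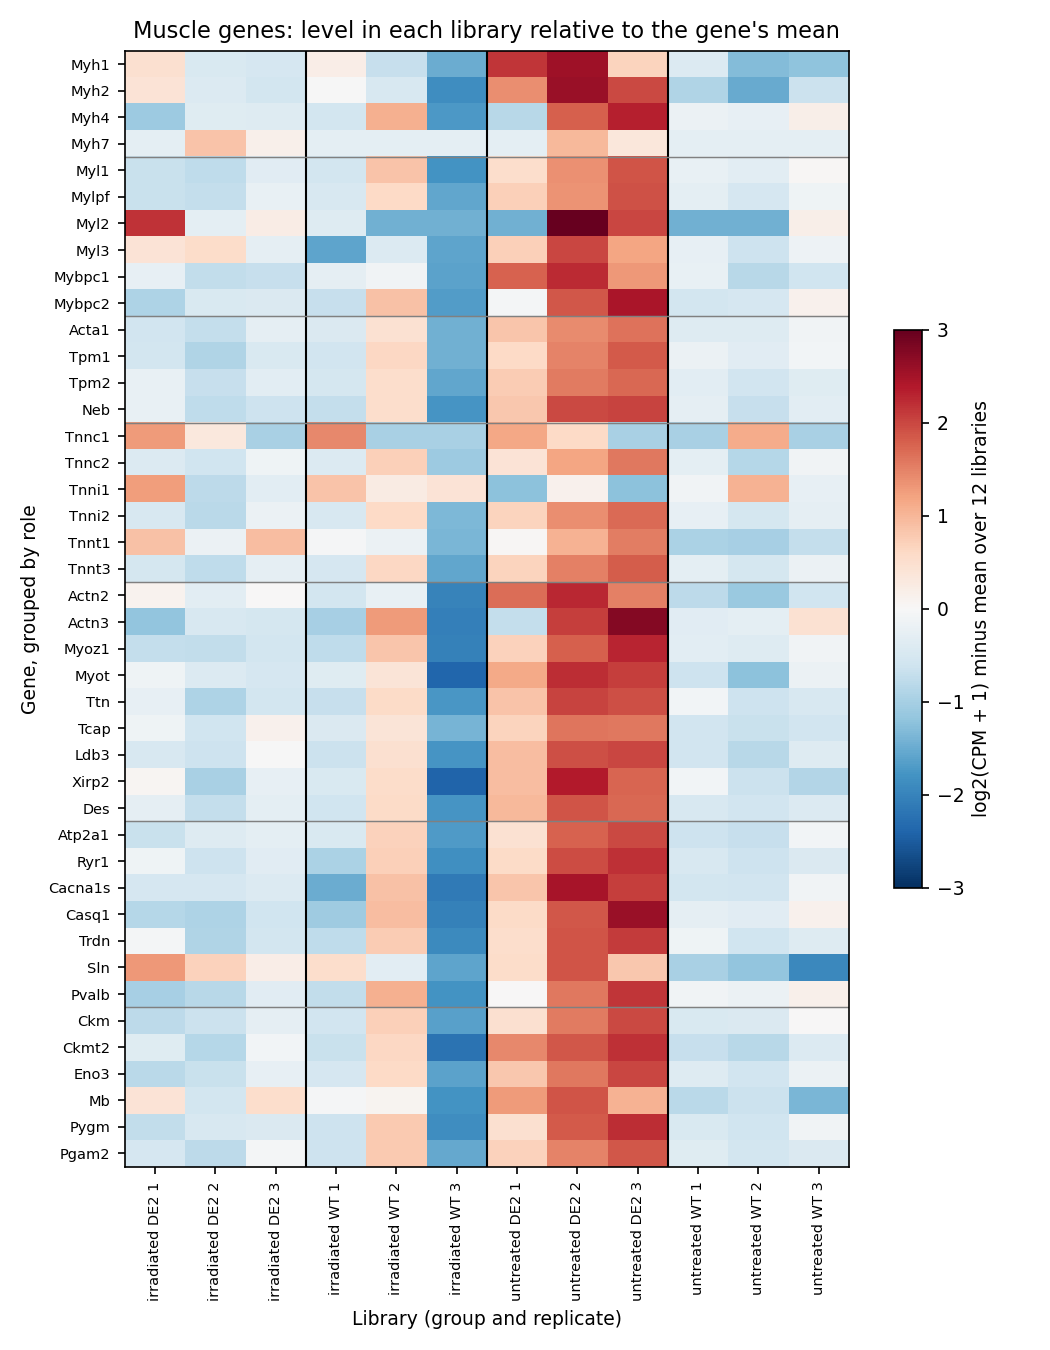
Level of each of the 42 muscle genes (rows, grouped by role) in each library (columns, by group and replicate), as log2(CPM + 1) minus the gene's mean over the 12 libraries; red is above and blue below that mean. Untreated DE2 libraries are red in most rows, irradiated WT replicate 2 is the reddest and replicate 3 the bluest of the irradiated WT libraries, and Myl2, Tnnc1 and Tnni1 do not follow the other rows.

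In WT skin no muscle gene passed the test with UVB. Of 41 members, 0 passed in edgeR's test of irradiated against untreated WT skin, where 0.0198% of all genes (3) did, and 0 passed in DESeq2. The count was also 0 without irradiated WT replicate 2 and untreated DE2 replicate 1, and 0 when each library was left out in turn. At an unadjusted p under 0.05, 1 member passed (Sln, 1.11 ± 0.49), against 689 of all 15126 genes. Groups did not overlap in 0 members, against 10.1% of all genes. The median log2 fold change was 0.13, and single members ranged from -1.60 (Myl3) to 1.11 (Sln). Irradiated WT libraries differed widely among themselves: the highest was a median of 4.98 times the lowest over the 38 members with counts in all 3, against 1.47 over 40 members in irradiated DE2, 2.37 over 39 in untreated DE2 and 1.37 over 39 in untreated WT skin. Acta1 changed by 0.02 ± 0.40 (SE) and Myh4 by 0.11 ± 0.68 on the log2 scale, neither past the threshold.

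With UVB, no muscle gene passed the test between DE2 and WT skin. Between irradiated DE2 and irradiated WT skin 0 of 41 members passed in edgeR's test, where 2.96% of all genes did, and 0 passed in DESeq2. At an unadjusted p under 0.05, 2 members passed (Myl3, 2.52 ± 1.08, and Tnnt1, 1.06 ± 0.44), against 2262 of all 15126 genes. Libraries did not overlap in 2 members, the low-count slow light chains Myl2 and Myl3, against 21.3% of all genes. The median was -0.21. Without irradiated WT replicate 2 and untreated DE2 replicate 1, 3 members passed as higher in irradiated DE2 skin (Myl3, Ryr1 and Cacna1s). Irradiated WT replicate 2 was the highest of its group in most members, so leaving it out lowers the WT mean. These 3 are therefore not a separate check.

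The difference between irradiated and untreated skin was not the same in the 2 genotypes for 17 members by the interaction term (UVB in DE2 minus UVB in WT). All 17 were lower, where 4.84% of all genes were lower. The median was -2.20, against 0.04 over all genes. An unadjusted p under 0.05 was found for 36 members, and for 4018 of all 15126 genes. Mybpc1 had the lowest adjusted p (-2.38 ± 0.49, adjusted p = 0.00738), followed by Myh2 (-2.58 ± 0.61, adjusted p = 0.0176) and Actn2 (-2.00 ± 0.50, adjusted p = 0.0211). The count moved strongly with the library left out, and fell for most of them. It was 1 without untreated WT replicate 2 or irradiated DE2 replicate 2, and 2 without untreated DE2 replicate 2. It was 3 without irradiated DE2 replicate 1 or 3, irradiated WT replicate 2 or untreated WT replicate 1 or 3. It was 4 without untreated DE2 replicate 3, 10 without irradiated WT replicate 1, 32 without untreated DE2 replicate 1 and 35 without irradiated WT replicate 3. Without irradiated WT replicate 2 and untreated DE2 replicate 1 together it was 32. Of the 17 members, 1 (Mybpc1) passed in each of the 12 fits that left out 1 library.

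The mix of fibre-type genes differed between libraries of the same group, most within untreated DE2 skin. Myh4 took 51.5, 76.7 and 77.3% of the summed counts of the 4 adult heavy chain genes in irradiated DE2 libraries and 65.6, 91.2 and 73.7% in irradiated WT libraries. It took 29.7, 65.1 and 88.8% in untreated DE2 and 79.6, 87.0 and 88.3% in untreated WT libraries. The groups overlapped in every comparison, and counting error was at most 1.32 percentage points on a side of the 95% Wilson interval. Myh1 held 62.6% in untreated DE2 replicate 1, the only library in which it exceeded Myh4, against 28.7 and 7.38% in replicates 2 and 3. Per kilobase of exon the Myh4 share was 31.2, 66.8 and 89.7% in the 3 untreated DE2 libraries, close to the share by counts. The Myh2 share was 7.65, 6.16 and 3.77% in untreated DE2 and 2.57, 1.96 and 2.71% in untreated WT skin, so these groups did not overlap.

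**Figure D4:**
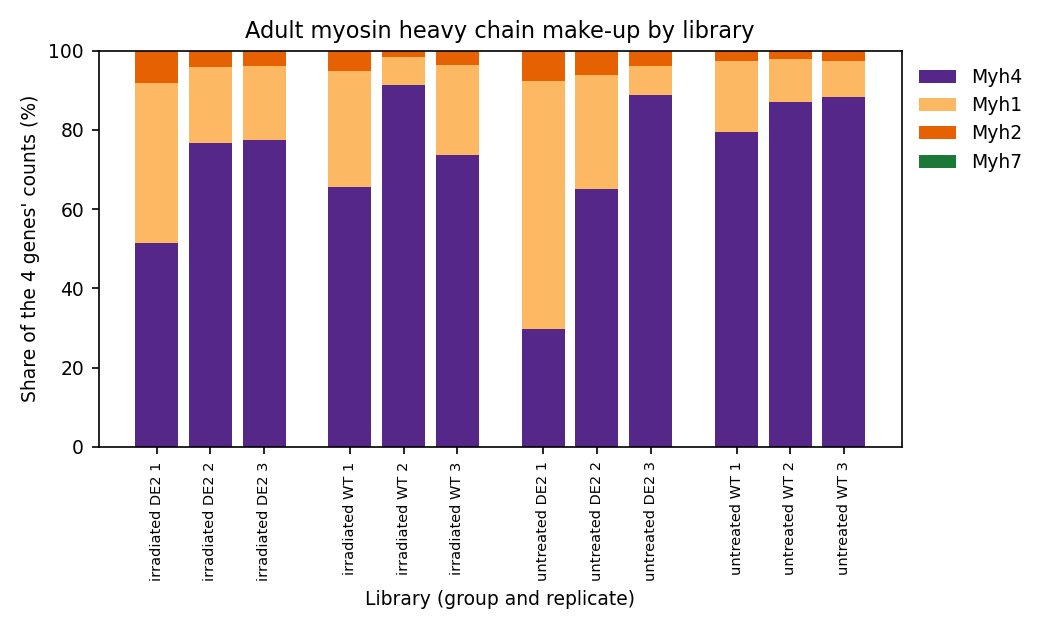
Share of each of the 4 adult myosin heavy chain genes (percent of their summed counts, y axis) in each library (x axis, by group and replicate). Myh4 ranges from 29.7% in untreated DE2 replicate 1 to 91.2% in irradiated WT replicate 2, Myh1 fills most of the rest, and Myh7 is too low to be seen.

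The make-up of untreated DE2 replicate 1 differed in some fast-fibre genes and not in others. Of 13 fast-fibre members, 7 held a smaller share of the member counts than their mean in replicates 2 and 3, and 6 a larger one. The share of Actn3 was 0.238 times as high, of Myh4 0.280, of Mybpc2 0.448, of Pvalb 0.582, of Atp2a1 0.791, of Myoz1 0.837 and of Myl1 0.992. The fast genes with a larger share were Tnnc2 at 1.06 times, Tnnt3 at 1.07, Myh2 at 1.10, Mylpf at 1.11, Tnni2 at 1.156 and Myh1 at 2.44. Among the other members the share of Casq1 was 0.661 times as high, of Mybpc1 1.97, of Mb 1.77, of Actn2 1.73, of Ckmt2 1.41 and of Acta1 1.32. Mb and Ckmt2 are known for oxidative fibres, and Actn3 and Pvalb for the fastest fibres. The slow-fibre members other than Mybpc1, all low in counts, did not move together. The share of Myl2 and of Myh7 was 0 in replicate 1. That of Tnnt1 was 0.852 times as high, of Myl3 0.956, of Tnni1 1.04 and of Tnnc1 6.80. Actn3 held 22.6% of the counts of Actn3 and Actn2 in replicate 1, against 57.5 and 78.5% in replicates 2 and 3. Within 4 of the 6 fast and slow pairs the fast form held nearly all counts in all 12 libraries: Tnni2 held 98.7 to 100.0% of its pair, Tnnt3 98.7 to 99.7%, Mylpf 98.9 to 100.0% and Myl1 99.7 to 100.0%. Tnnc2, with few counts in either form of its pair, held 63.2 to 100.0%. Mybpc2 held 33.3 to 79.9% of the counts of Mybpc2 and Mybpc1, the lowest in untreated DE2 replicate 1, where the slow form was the more abundant. The labels give no difference in body site between the 3 libraries.

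**Figure D5:**
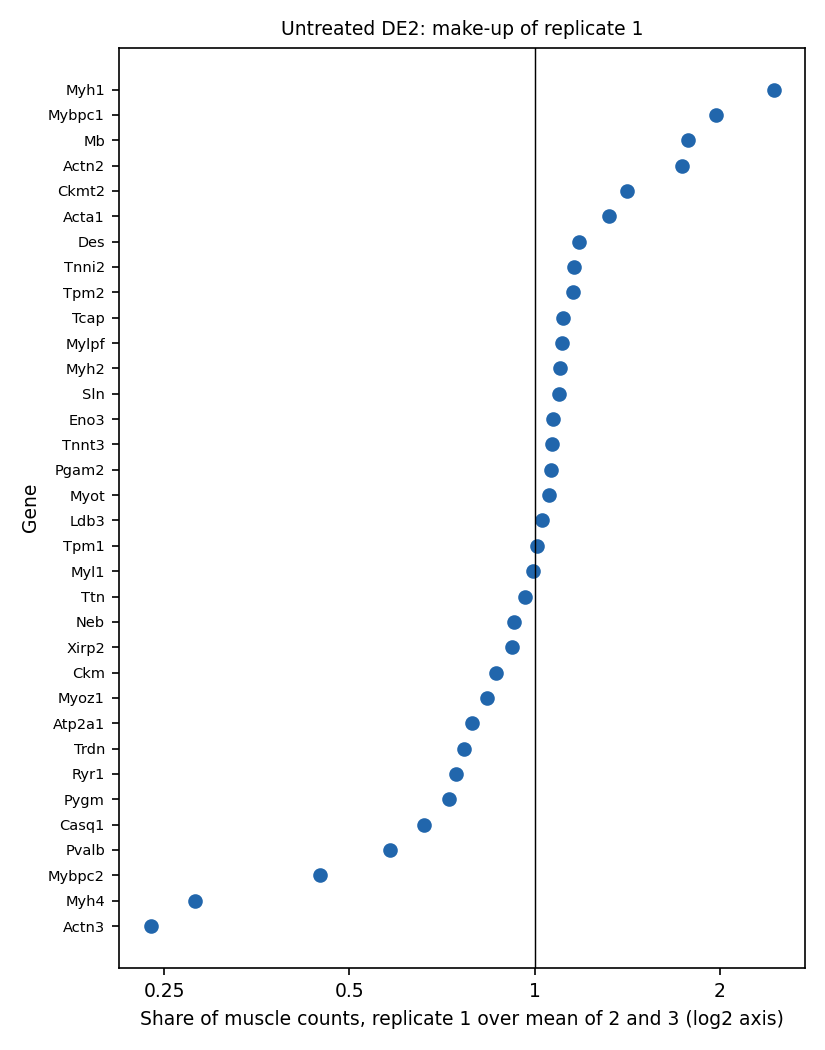
Share of all member counts held by each gene (y axis) in untreated DE2 replicate 1 divided by its mean share in replicates 2 and 3 (x axis, log2 scale), for the 34 members with over 0.1% of the member counts in replicate 1. Actn3, Myh4 and Mybpc2 lie furthest left at 0.238, 0.280 and 0.448, and Myh1 furthest right at 2.44.

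Further muscle genes were listed by function. Among accessory sarcomere genes, 22 of 25 were higher in untreated DE2 than in untreated WT skin, and 23 lower, 1 higher (Tpm3, a tropomyosin also made outside muscle) in irradiated than in untreated DE2 skin. Myoz2 averaged 168.8 ± 33.1 CPM in untreated DE2 and 19.2 ± 1.38 CPM in untreated WT skin (3.14 ± 0.38 SE, adjusted p = 4.42e-05), and Lmod2 changed by 2.32 ± 0.37 (adjusted p = 0.000523). For calcium and triad genes the counts were 16 higher and 1 lower of 18 without UVB, and 16 lower and 1 higher in irradiated DE2 skin, with Hrc at 2.22 ± 0.38 (adjusted p = 0.000978) and Casq2 at 2.46 ± 0.43 (adjusted p = 0.00104) without UVB. The gene against the trend in both was Atp2a2, the calcium pump of slow muscle, heart and keratinocytes. For muscle metabolism, 15 of 18 were higher without UVB and 17 lower in irradiated DE2 skin, with Lpl at 1.47 ± 0.26 (adjusted p = 0.00124) and Gys1 at 2.00 ± 0.38 (adjusted p = 0.00192). The list of mitochondrial genes held muscle isoforms and also general genes such as Cs, Mdh2 and Idh3a. In it, 10 of 11 were higher without UVB, among them Coq8a (2.75 ± 0.34, adjusted p = 5.73e-05) and Cox8b (2.00 ± 0.33, adjusted p = 0.000708). In irradiated DE2 skin 9 were lower and 1 higher (Ckmt1, a mitochondrial creatine kinase made outside muscle). Over all genes tested, 11.8% were higher without UVB and 13.4% lower in irradiated DE2 skin.

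Myogenic regulators were also higher in untreated DE2 skin, in 6 of 9 tested. Myod1 had 7.07, 19.5 and 28.6 CPM in untreated DE2 and 2.61, 2.33 and 2.71 CPM in untreated WT skin (2.83 ± 0.96, adjusted p = 0.0446). Myf6 (2.13 ± 0.41, adjusted p = 0.00214), Mef2c (1.95 ± 0.43, adjusted p = 0.00582), Mef2a (1.07 ± 0.23, adjusted p = 0.00402) and Tead4 (1.21 ± 0.37, adjusted p = 0.0298) passed too. Myog (2.13 ± 0.97, adjusted p = 0.129), Mstn (2.08 ± 0.71, adjusted p = 0.0503) and Eya4 (2.73 ± 1.01, adjusted p = 0.065) did not. Myf5 and Pax7, the markers of satellite cells, had too few counts to be tested. In irradiated against untreated DE2 skin 7 of 9 were lower, all but Myog and Tead4. Developmental isoforms, which mark new or regenerating fibres, gave 0 of 5 higher without UVB. Myh8, the perinatal myosin, did not pass (2.31 ± 1.08, adjusted p = 0.139), nor did Myl4 (1.36 ± 0.78, adjusted p = 0.231), and 1 of 5 (Actc1) was lower in irradiated DE2 skin. Of 11 atrophy and denervation genes tested, 2 were higher and 2 lower in untreated DE2 than in untreated WT skin, with a median of -0.01. The ubiquitin ligases Fbxo32 (2.06 ± 0.37, adjusted p = 0.00128) and Trim63 (2.29 ± 0.49, adjusted p = 0.0047) were higher, while Runx1 (-1.98 ± 0.34, adjusted p = 0.000975) and Foxo3 (-1.38 ± 0.28, adjusted p = 0.00306) were lower. In irradiated against untreated DE2 skin 3 were higher (Cdkn1a, Runx1 and Foxo3) and 3 lower (Fbxo32, Trim63 and Musk).

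Genes of other cell types were read beside the muscle genes. Of all 15126 genes tested, 1782 were higher and 1695 lower in untreated DE2 than in untreated WT skin. In irradiated against untreated DE2 skin, 2180 were higher and 2022 lower. Hair follicle markers, among them inner root sheath keratins such as Krt71, ran opposite to muscle: 12 of 12 were lower in untreated DE2 than in untreated WT skin and 12 of 12 higher in irradiated than in untreated DE2 skin. Their summed level was 8023 to 13030 CPM in irradiated DE2, 19569 to 24272 in irradiated WT, 133 to 687 in untreated DE2 and 10254 to 18464 in untreated WT skin, none of the 12 being at 0 in all libraries. Krt71 had 279.3, 36.78 and 34.45 CPM in untreated DE2, against 2677, 5429 and 5294 CPM in untreated WT skin. The part of the hair follicle difference in the muscle result was not tested. Smooth muscle markers gave 3 of 10 higher (Myh11, Lmod1 and Synpo2) and 1 lower (Ckb) without UVB. In irradiated against untreated DE2 skin they gave 3 lower (Smtn, Lmod1 and Synpo2) and 1 higher (Ckb). Acta2 did not pass without UVB, at 116.0, 90.8 and 190.6 CPM in untreated DE2 and 136.1, 114.9 and 144.9 CPM in untreated WT skin (0.01 ± 0.25, adjusted p = 0.992). The summed level of the 10 smooth muscle markers was 477 to 498 CPM in irradiated DE2, 383 to 579 in irradiated WT, 889 to 1276 in untreated DE2 and 440 to 538 in untreated WT skin, with no gene at 0 in all libraries. Synpo2, which passed (2.25 ± 0.43, adjusted p = 0.00253), is also made in skeletal muscle. Heart markers were low, with a summed level of 8.51 to 28.1 CPM in a library. Nppa had 0 counts in all libraries, and 5 of the 8 had too few counts to be tested. Of the 3 tested, Nppb was lower in untreated DE2 than in untreated WT skin and higher in irradiated than in untreated DE2 skin. Nppb had 0 counts in every untreated DE2 library and at most 18 counts in any library. Myl4 and Tnnt2 passed in neither comparison. Adipocyte markers gave 1 of 10 higher (Lpl, also counted among the muscle metabolism genes) without UVB and 6 lower, Lpl among them, in irradiated DE2 skin. Their summed levels were 1218 to 1849 CPM in irradiated DE2, 1617 to 1840 in irradiated WT, 2395 to 6250 in untreated DE2 and 1636 to 2876 in untreated WT skin. Peripheral nerve markers gave 3 of 5 higher without UVB (among them Mbp and Pmp22). In irradiated against untreated DE2 skin 0 of 5 were higher or lower, with a median of -0.34. Their summed levels were 361 to 553 CPM in irradiated DE2 and 152 to 402 in irradiated WT skin. They were 596 to 802 CPM in untreated DE2 and 204 to 276 in untreated WT skin. Fibroblast, endothelial and leukocyte markers gave 0 higher or lower of 8, 6 and 6 without UVB, and keratinocyte markers 1 higher and 1 lower of 10. In irradiated against untreated DE2 skin, keratinocyte markers gave 4 higher (Krt14, Krt1, Ivl and Flg) and 3 lower (Krt10, Lor and Col17a1) of 10, fibroblast markers 2 higher (Col1a1 and Col3a1) of 8, leukocyte markers 1 higher (Ptprc) of 6, and endothelial markers 0 of 6. The summed keratinocyte level was 21155 to 26245 CPM in irradiated DE2, 5764 to 8872 in irradiated WT, 7999 to 14439 in untreated DE2 and 5648 to 8268 in untreated WT skin, with no gene at 0 in all libraries. Keratinocyte genes such as Krt14 (at least 1742 CPM in every library) were present in all libraries, which fits the skin label. The part of keratinocyte, adipocyte, nerve or smooth muscle markers in the muscle result was not tested.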

How the data were processed

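Bulk RNA-seq of total RNA from mouse skin was analysed in 12 libraries. The values deposited by the authors are whole-number read counts per gene, 1 table per library, with no normalization, per the file contents. The submitters' processing notes name Trimmomatic 0.39, Picard 3.1.0, SAMtools 1.16, HTSeq 2.0.2 and the GRCm38 build. Which program aligned the reads, which gene annotation was counted, whether strand was used and whether duplicates were removed is not stated. PCR duplicates may therefore be counted.

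Groups were taken from the labels, with 3 libraries each. Library totals were 2809142 to 4741726 counts. Genes were kept by edgeR's filterByExpr (15126 genes), scaled by TMM and fitted in edgeR 4.0.16 (R 4.3.3, limma 3.58.1) with a robust quasi-likelihood model of all 12 libraries, 1 mean per group, with 8 residual degrees of freedom. The coefficient of biological variation was 35.8%. Adjusted p-values are Benjamini-Hochberg over the 15126 genes, and 0.05 was the threshold. SE is the log2 fold change divided by the square root of F. The fit was tested on simulated data with known fold changes. Shares of counts carry 95% Wilson intervals (statsmodels 0.14.6, Python 3.11.15). DESeq2 1.42.0, other scalings and filters, and leaving out libraries were the alternatives.

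The members, gene lists and tests were chosen with earlier results of these data known. Values of every library are given for the 2 most abundant members of each role and for the heavy chains. Of other muscle lists, the 2 genes with the lowest p without UVB and the myogenic regulators are named, except 1 that is not reported here. Trim63, Foxo3, Cdkn1a, Musk, Tpm3, Atp2a2, Ckmt1, Actc1, Synpo2, Myh11, Lmod1, Smtn, Ckb, Nppb and the members described for their own pattern were chosen after their values were seen. Gene coordinates and exon lengths are from GENCODE M21 (GRCm38). Untreated libraries carry lower library numbers than irradiated ones, so order of preparation and treatment cannot be told apart.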

Additional observations from a re-analysis of the deposited data

Results flagged for a closer look

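For 17 muscle genes, the interaction test set the irradiated minus untreated difference in DE2 skin apart from that in WT skin (edgeR quasi-likelihood, adjusted over all genes). That difference also holds the change of body site. Between genotypes, the median log2 fold change of the members was 2.01 in untreated and -0.21 in irradiated skin. All 17 values, the log2 irradiated minus untreated difference in DE2 minus that in WT, were below 0. Each of the 17 genes was lower in irradiated than in untreated DE2 skin. Among filament genes they were -2.48 for Myh1 (adjusted p = 0.0351), -2.58 for Myh2 (0.0176), -2.01 for Mylpf (0.046), -2.38 for Mybpc1 (0.00738), -2.00 for Tpm1 (0.0464), -1.93 for Tpm2 (0.0483), -2.29 for Neb (0.0365) and -1.93 for Tnni2 (0.044). Among Z-disc genes they were -2.00 for Actn2 (0.0211), -2.45 for Myot (0.045), -2.31 for Ttn (0.0402), -1.82 for Tcap (0.0421), -2.26 for Ldb3 (0.0314) and -2.17 for Des (0.0337). Among energy genes they were -2.56 for Ckmt2 (0.0327), -2.24 for Eno3 (0.0333) and -2.16 for Pgam2 (0.0456). The count of 17 fell to 1 without untreated WT replicate 2 or without irradiated DE2 replicate 2, and 1 of the 17 genes (Mybpc1) passed in each of the 12 fits that left out 1 library. Acta1 lay just outside the threshold, at -1.85 (0.0537).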

How the results depend on the processing

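In irradiated against untreated DE2 skin, 34 or 35 members passed under every other tool, scaling and filter, and 25 passed in all 12 fits that left out 1 library, each of which gave 28 to 35. In untreated DE2 against untreated WT skin, other settings gave 32 to 39, leaving out 1 library gave 17 to 38, and 17 members passed in all 12 such fits. Without any filter on low counts, 1 member passed with UVB in WT skin (Sln), 2 between irradiated DE2 and irradiated WT skin (Myl2 and Sln) and 35 in the interaction. The interaction count was 25 in DESeq2, 11 with the members left out of the scaling, 5 with total counts, 32 without irradiated WT replicate 2 and untreated DE2 replicate 1 together, and 1 to 35 leaving out each library. Without those 2 libraries, 3 members passed between irradiated DE2 and irradiated WT skin, and 2 of them turned round: Ryr1 to 0.98 (adjusted p = 0.0332), against -0.04 with all libraries, and Cacna1s to 1.34 (adjusted p = 0.00937), against -0.19. In irradiated WT skin replicate 2 was the highest library for both genes. Ryr1 had 154.2, 484.8 and 82.1 CPM there, and Cacna1s had 18.9, 102.1 and 11.9 CPM. Leaving out replicate 2 therefore lowered the mean of that group. Why replicate 2 was high was not tested. Scaling to total counts moved the median of all genes by -0.37 for genotype without UVB and by 0.26 for UVB in DE2. Shares of all genes that passed are not given for these settings. Whether the member counts moved along with those shares is therefore not shown.

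The share of counts in the members was 10.7 percentage points lower in irradiated than in untreated DE2 skin. Leaving out 1 library, the irradiated minus untreated difference was -2.21 to 1.48 points in WT mice, and irradiated DE2 minus irradiated WT was -2.59 to 1.10. The difference in Myh4 share was -8.46 to 21.1 points for UVB in DE2 and -13.9 to 0.20 for genotype with UVB, so neither has a stable sign. No paired analysis was possible because the labels carry no replicate number or animal. The slow-fibre genes Myl2, Myl3, Tnnc1 and Myh7 had 0 to 93 counts in a library, which limits the precision of their values.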
